A study of Mus musculus with 28 samples.

Results

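Cultures kept without 2iL for 96 h were compared with the starting culture of mouse embryonic stem cells. The comparison takes the 4 libraries labelled 96 h and the 4 labelled 2iL, 8 of the 28 libraries in the series. The libraries were taken by their titles. Differences are given as 96 h minus 2iL.

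All 8 libraries came from E14, an embryonic stem cell line derived from the mouse blastocyst, grown without feeder cells on gelatin in the serum-free medium N2B27. The 2iL group was kept with the GSK3 inhibitor CHIR99021, the MEK inhibitor PD0325901 and the cytokine LIF. The 96 h group was plated at single-cell density in the same medium and lost the inhibitors and LIF together on the following day. Each group has 1 library from each of experiments 1 to 4, and the experiment number links the groups. The labels do not say when the 2iL libraries were collected after plating, so removal of 2iL and time in culture cannot be told apart. Whether the experiments differ in more than their number, as cells thawed apart would, is not given in the sources used here, and all are 1 cell line.

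As background, the inhibitors hold back differentiation from opposite sides. Blocking MEK silences the FGF and ERK pathway that pushes cells out of the naive state. Blocking GSK3 stabilises beta-catenin and relieves the repressor TCF7L1, and LIF acts through STAT3 on naive transcription factors. Cells freed of all of them lose the naive network, pass through a formative state like that of the early postimplantation epiblast, and in N2B27 mostly go on towards neural tissue, since that medium has no serum and no added BMP.

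RNA was read at the 3′ ends of polyadenylated transcripts and counted per gene. Gene counts per library were 1748315 to 2828694 in 2iL and 2145440 to 2553721 at 96 h, and 13453 to 14697 genes were detected in the 8 libraries. Levels are given as CPM, a gene's counts per 1000000 counts of the library after TMM scaling, with values of single libraries in the order of experiments 1 to 4. Reads that aligned at more than 1 place, 53.5% to 57.0% of those listed, were not counted, so genes with close copies such as Pou5f1 are undercounted. A 3′ library gives about 1 tag per transcript. The change of a gene is set against the level of the same gene. Summed levels of lists add CPM across genes, so members with high counts weigh most, and the ranking by share orders genes by their difference in CPM.

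The 96 h library of experiment 3 stood apart among genes that changed, by the test defined below. Over 4907 genes not chosen by the test, its median deviation from the mean of the other 96 h libraries was 0.22 on the log2 scale, against 0.19, 0.17 and 0.15 for experiments 1, 2 and 4 and 0.17 to 0.23 for the 2iL libraries. Among 1538 genes that rose and reached 20 CPM at 96 h it was the highest of the 4 libraries in 682 (44.3%) and the lowest in 389 (25.3%). Among 1687 that fell from at least 20 CPM it was the lowest in 739 (43.8%) and the highest in 341 (20.2%). That library took part in choosing both sets, so these shares are a description. The summed level of a list of midbrain, hindbrain and spinal cord factors was 115, 105, 811 and 277 CPM in the 96 h libraries, highest in experiment 3. Where leaving that library out ended a call or moved a printed fold by over 1.5 times, the value without it is given.

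The words rose, fell and changed are kept for genes where the Benjamini-Hochberg adjusted p of edgeR's quasi-likelihood test, taken over all 11080 genes tested, was under 0.05. The size of a change is its log2 fold change, printed ± its standard error, and rests on 4 libraries a side. By this rule 4823 genes changed (43.5%), of which 2568 rose (23.2%) and 2255 fell (20.4%). The median change over all genes was 0.02. The median fold was 2.61 among genes that rose and 2.09 among those that fell. At least 8-fold changes numbered 481 upwards and 253 downwards. With every 96 h library above every 2iL library stood 19.4% of genes, and 17.1% stood below in the same sense. Counts for gene groups below are read against these shares.

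**Figure D1:**
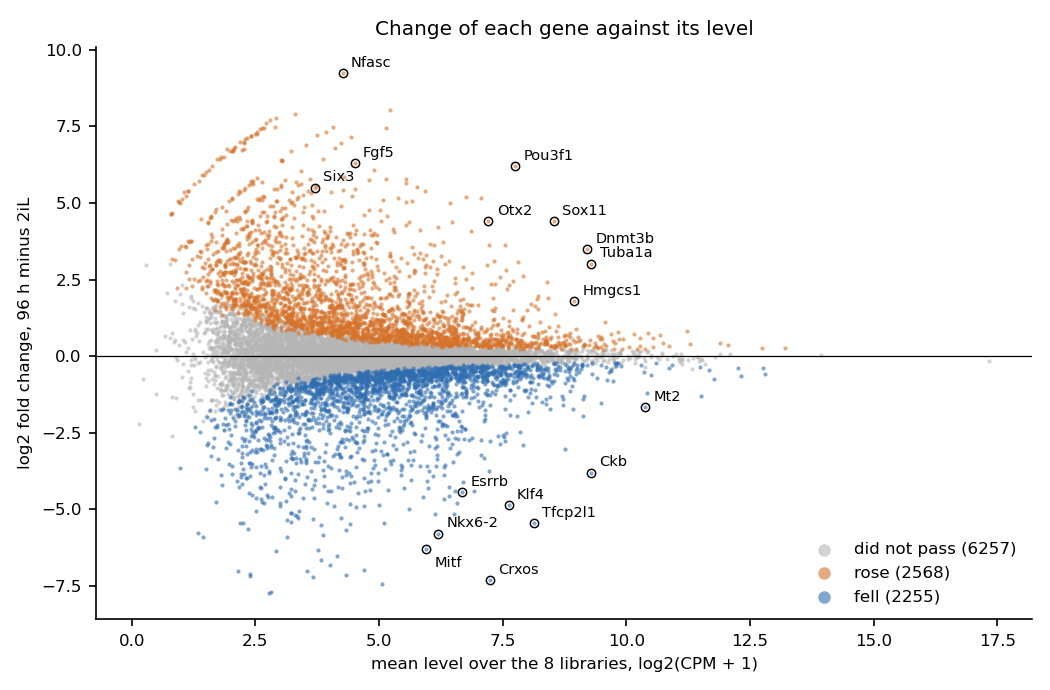
Log2 fold change (96 h minus 2iL) of each of 11080 genes against its mean level over the 8 libraries (log2 of CPM plus 1). Orange points rose (2568), blue points fell (2255) and grey points did not pass the test. Nfasc is the highest point, and Crxos lies near the lower end at -7.32.

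The naive pluripotency genes fell nearly as a block. Of 20 measured, 19 fell and 0 rose by edgeR (0 also at an unadjusted p under 0.05 and by DESeq2, as for each count of 0 in a list below unless stated), with a median change of -4.12, and in all 19 the 8 libraries did not overlap. Their summed level was 4091, 4191, 4413 and 4688 CPM in 2iL and 552, 408, 173 and 359.8 CPM at 96 h. Gbx2, a homeobox factor, was the member that did not pass the test, at 17.3, 6.84, 10.5 and 7.91 CPM in 2iL and 7.76, 3.62, 7.38 and 5.65 CPM at 96 h. Without the 2iL library of experiment 4 it fell (-0.99).

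Crxos (chromosome 7, 15882617 to 15904020, plus strand) in mm10, a homeobox gene of the early embryo and one of the markers of this comparison, was at 263, 368, 271 and 292 CPM in 2iL. At 96 h it was at 2.74, 2.01, 1.74 and 1.21 CPM, far under every 2iL library, a change of -7.32 ± 0.35 (adjusted p = 1.2e-17). Most of that loss was present at 48 h, when its mean was 7.62 ± 6.10 CPM (SD, n = 4).

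The core factors followed with different remainders. Tfcp2l1, which acts directly under STAT3, fell from 482, 508, 564 and 636 CPM to 16.9, 8.05, 12.2 and 13.7 CPM (-5.45 ± 0.30, adjusted p = 4e-16). Klf4, another STAT3 target, fell from 316, 411, 383 and 402 CPM to 14.2, 6.04, 18.7 and 12.9 CPM (-4.87 ± 0.27). Esrrb, an orphan nuclear receptor released when TCF7L1 repression is lifted, fell from 212, 161, 183 and 222 CPM to 13.2, 12.5, 3.47 and 7.27 CPM (-4.43 ± 0.31). In all 3 genes the libraries of the groups did not overlap. Nanog fell less, from 155, 139.8, 120.1 and 174 to 12.8, 10.5, 5.64 and 12.1 CPM (-3.87 ± 0.32), and Zfp42 (REX1), the usual reporter gene of the naive state, fell from 286, 227, 211 and 228 to 45.7, 32.2, 10.4 and 20.6 CPM (-3.21 ± 0.30). Zfp42, Klf5, Klf2, Fbxo15, Fgf4 and Tdh kept more transcript in experiments 1, 2 and 4 than in experiment 3. Tdh, the threonine dehydrogenase on which mouse embryonic stem cells depend, was at 79.0, 74.1, 13.9 and 67.0 CPM at 96 h after 344, 377, 502 and 459 CPM in 2iL.

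Genes shared by the naive and the later pluripotent state did not move together. Of 13 measured, 3 rose and 6 fell, with a median of -0.33. Sox2, which is kept in the neural lineage, fell from 445, 483, 649 and 716 to 324, 299, 353 and 356 CPM (-0.77 ± 0.11). Utf1, a chromatin-bound factor of pluripotent cells, rose by 1.91 ± 0.32, from 99.6, 53.4, 46.8 and 52.6 to 334, 334, 69.9 and 267 CPM. The library of experiment 3, the lowest at 96 h, lay within the 2iL range. Pou5f1 was counted at 36.1, 27.4, 32.5 and 33.4 CPM in 2iL and 21.9, 24.6, 6.95 and 21.4 CPM at 96 h, a change of -0.91 ± 0.29 (adjusted p = 0.012) that was not called without the replicate block (-0.78) or without the 2iL library of experiment 3 (-0.61).

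Genes of the formative and primed epiblast rose. Of 22 measured, 17 rose and 2 fell, with a median of 3.57, and the summed level went from 798, 764, 819.6 and 782 CPM to 4097, 4279, 3687 and 4853 CPM. Pou3f1 (OCT6) (chromosome 4, 124656807 to 124660655, plus strand), a POU factor of the epiblast, rose from 3.85, 4.70, 6.73 and 7.91 to 408, 499, 259 and 529 CPM (6.21 ± 0.50, adjusted p = 3.4e-12). Otx2, a homeobox factor that opens enhancers on the way out of the naive state, rose from 14.4, 20.9, 9.73 and 8.48 to 247, 266, 307 and 302 CPM (4.40 ± 0.38). Otx2 was even across the 96 h libraries, whereas Pou3f1 was lowest in experiment 3.

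Fgf5, the classic marker of the formative epiblast, had 4 counts in 2iL over 4 libraries and 407 at 96 h. Its levels at 96 h were 58.9, 49.5, 10.4 and 52.9 CPM, and the library of experiment 3 was far below the others. The change was 6.31 ± 0.75 (adjusted p = 1.8e-08). The de novo DNA methyltransferase gene Dnmt3b rose from 111, 79.5, 110.0 and 66.7 to 1246, 1301, 476 and 1310.2 CPM (3.50 ± 0.31), again with experiment 3 lowest. Car4, a membrane-bound carbonic anhydrase, went from 2 counts over the 2iL libraries to 394 over those of 96 h (ratio 185, 95% interval 50.8 to 1530), and stood at 33.3, 37.4, 31.7 and 62.6 CPM. The SRY-box genes Sox4, Sox11 and Sox3 rose by 3.64 ± 0.17, 4.42 ± 0.29 and 5.53 ± 0.29 and are also known from neural cells. The 2 members that fell were the ephrin receptor gene Epha4 (-2.66 ± 0.17, from 182 to 214 to 22.1 to 41.1 CPM) and Etv5 (-0.62 ± 0.25). The fall of Etv5 was not called without the replicate block (-0.56), by library totals (-0.57) or DESeq2 (-0.64), on leaving out experiment 3 (-0.39) or 4 (-0.59) at 96 h, or the 2iL library of experiment 3 (-0.51) or 4 (-0.62).

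**Figure D2:**
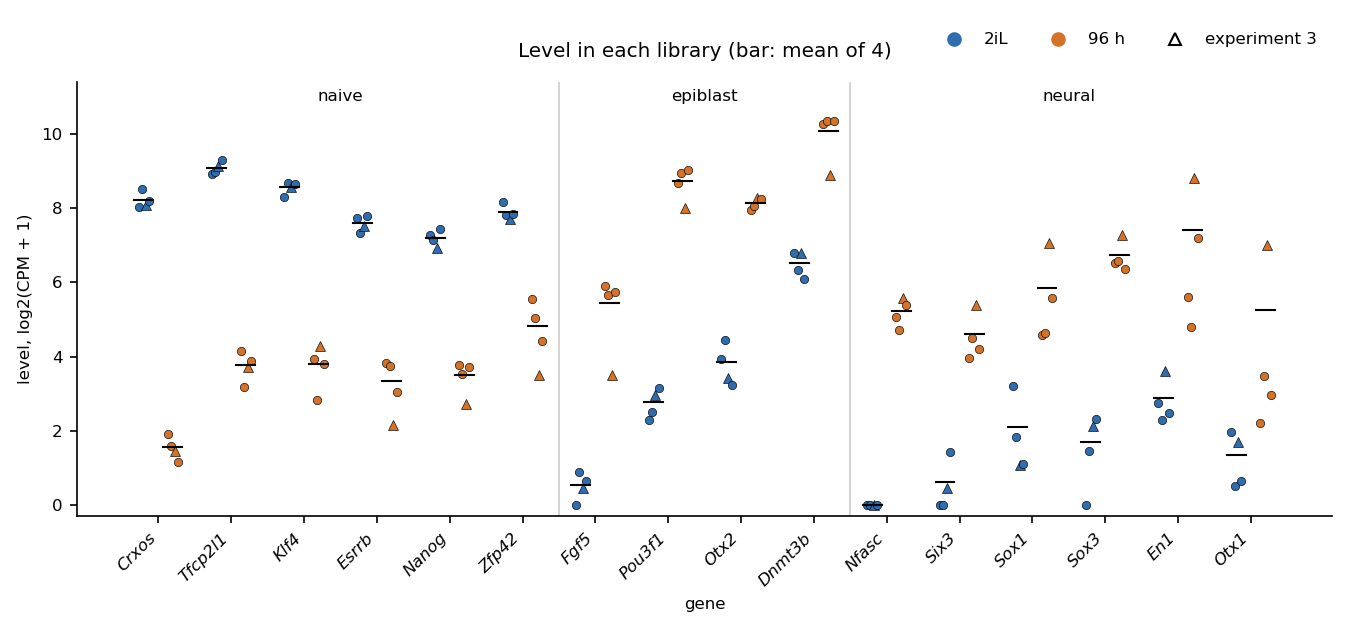
Level of 16 genes in each of the 8 libraries, as log2 of CPM plus 1, with 2iL on the left and 96 h on the right of each pair and a bar at the mean CPM of 4 libraries. Triangles mark experiment 3. The naive genes lie higher in 2iL and the epiblast and neural genes higher at 96 h, and the triangles lie low in Fgf5 and Dnmt3b and high in Sox1, En1 and Otx1.

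The 15 largest rises, among genes of at least 10 CPM at 96 h whose libraries did not overlap, were led by Nfasc (chromosome 1, 132564690 to 132741797, minus strand), which encodes neurofascin, a cell adhesion protein of axon initial segments and nodes. No read of Nfasc was counted in the 4 libraries of 2iL. At 96 h it was at 32.4, 25.4, 46.5 and 41.2 CPM, at least 107-fold higher than the level of 3 counts over the 2iL group. Its mean was 3.74 ± 2.40 CPM at 48 h and 28.2 ± 7.48 CPM at 120 h (SD, n = 4). In CPM most of the gain thus came between 48 and 96 h (log2 fold change 3.25 ± 0.40, adjusted p = 3.8e-07). With 0 counts in 2iL, the part before 48 h cannot be sized on the log2 scale.

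Other genes with 0 counts in 2iL were Foxd4, a forkhead factor of the early neural plate, at 4.57, 12.1, 19.102 and 16.6 CPM and at least 38.6-fold higher, and Tmem54, a membrane protein gene, at 13.7, 16.1, 4.34 and 13.7 CPM and at least 35.3-fold higher. Stmn4, a tubulin-binding stathmin of neurons, was at 14.2, 7.65, 19.5 and 2.83 CPM and at least 32.6-fold higher. For Ajap1, an adherens junction protein gene, the bound of 52.0-fold leaned on experiment 3: its levels were 5.94, 0.402, 55.6 and 8.48 CPM, and without that library the bound was 14.6-fold. Cdh6, which encodes a cadherin of the neural plate and the kidney, behaved likewise, at 2.28, 2.41, 40.4 and 6.46 CPM, with bounds of 38.1-fold and, without experiment 3, 10.99-fold. Rbfox3, whose product is the neuronal splicing factor NeuN, stood at 6.39, 6.44, 9.98 and 18.6 CPM (at least 30.6-fold higher), and Apln, the ligand of the apelin receptor, at 11.9, 9.66, 5.64 and 12.9 CPM (at least 29.6-fold). Galnt3, an enzyme of O-linked glycosylation, was at 11.4, 21.7, 2.605 and 7.27 CPM, lowest in experiment 3.

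The remaining large rises were of genes with a few counts in 2iL. Btbd17, which encodes a BTB domain protein, had 2 and 683 counts in the 2 groups (ratio 320.1, 95% interval 88.3 to 2648) and stood at 62.6, 62.4, 80.3 and 83.2 CPM at 96 h. Car14, a carbonic anhydrase, had 3 and 649 counts (ratio 203, 95% interval 69.1 to 986). Lmx1b, a LIM homeobox factor of the midbrain, had 1 and 269 counts (ratio 252, 95% interval 44.9 to 9995). The set also held Rims4, Pcsk2 and Car4. These intervals cover counting error only.

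At the other end, 2 of the 15 largest falls left no read at 96 h. Pramel6, a PRAME family gene of the preimplantation embryo, was at 13.9, 15.8, 4.11 and 13.002 CPM in 2iL and at least 36.9-fold lower. Tlx2, a homeobox gene, was at 10.6, 10.7, 7.11 and 20.4 CPM in 2iL and at least 38.4-fold lower. Fetub, a secreted protease inhibitor, had 576 counts in 2iL and 3 at 96 h (ratio of 2iL to 96 h 205, 95% interval 69.7 to 996). Mitf, the microphthalmia transcription factor, fell from 82.5 to 145 to 0.457 to 2.17 CPM (-6.28 ± 0.35). Nkx6-2, a homeobox factor known from the ventral neural tube, was high in 2iL, at 109.7, 164, 165 and 129 CPM, and was at 1.83, 3.22, 3.04 and 2.02 CPM at 96 h (-5.79 ± 0.38). The other falls were of Xaf1, Srarp, Trpm1, Mal, Dmgdh, Tnni1, Slc25a48, Spic and Pglyrp1.

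Transcription factors of the anterior neural plate and forebrain appeared at low level. Of 9 measured, 8 rose and 0 fell, with a median of 4.03. The list holds 18 genes, and since members could pass the filter on low counts through later times at which they are high, these counts are a description. Six3 (chromosome 17, 85613608 to 85629302, plus strand), a homeobox factor of the forebrain and eye field, was at 0, 0, 0.374 and 1.70 CPM in 2iL and 14.6, 21.7, 40.8 and 17.4 CPM at 96 h (5.50 ± 0.76, adjusted p = 3e-07), and the libraries did not overlap. Without the 2iL library of experiment 4, which held 3 of its 4 counts there, the fitted change was 6.96. Most of its gain in CPM came after 48 h (1.87 ± 1.11 CPM at that time). Most other members were carried by experiment 3. Otx1, a relative of Otx2, was at 3.65, 10.1, 129 and 6.86 CPM, a change of 4.03 ± 0.61 with that library and 2.77 ± 0.59 without it (4.96 and 3.04 without the 2iL library of experiment 1 or 3, and 3.44 by DESeq2). Fezf2, Lhx5 and Zic1 had 0 counts in 2iL and reached 22.1, 23.01 and 6.51 CPM in experiment 3, against 3.22 to 6.86, 1.21 to 3.63 and 0 to 0.913 CPM in the other 96 h libraries. Pax6, which directs eye and forebrain development, was called as risen (2.86 ± 0.74) but stayed at 2.28, 2.41, 17.8 and 4.85 CPM. The rise of Emx2 (2.74 ± 0.87) was not called without experiment 3 (1.77 ± 0.95) and was 3.42 without the 2iL library of experiment 1, and 7 of the 9 genes rose without experiment 3 at 96 h. In a fit of the 2 groups alone 1 of the 9 had enough counts to be tested, and it rose.

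Factors of the midbrain, hindbrain and spinal cord went both ways. Of 19 measured, 9 rose and 5 fell, with a median of 2.06. Their summed level was 170, 263, 253 and 225 CPM in 2iL and 115, 105, 811 and 277 CPM at 96 h. In experiments 1 and 2 the 96 h sum was thus below every 2iL library. The risers included markers of the midbrain and its boundary with the hindbrain. En1, which marks that region, was at 5.77, 3.85, 11.2 and 4.52 CPM in 2iL and 47.5, 26.97, 454 and 147 CPM at 96 h (4.39 ± 0.39), and the lowest 96 h library was still above every 2iL library. Irx3, an Iroquois homeobox gene, rose from 0 to 1.70 CPM to 30.6, 37.4, 104 and 54.9 CPM (6.07 ± 0.59). Pax2 had 2 counts in 2iL and stood at 1.83, 2.82, 53.8 and 12.5 CPM at 96 h (ratio 77.8, 95% interval 21.2 to 648), with a fitted change of 5.68 ± 0.97, or 4.23 ± 0.96 without experiment 3. Wnt1, a ligand made at the same boundary, had 0 counts in 2iL and stood at 0.457, 1.21, 24.3 and 4.44 CPM, at least 22.5-fold higher with experiment 3 and 6.01-fold without it. Nkx6-1, a relative of Nkx6-2, rose by 4.01 ± 0.62, or 3.05 ± 0.58 without experiment 3, with overlapping libraries (3.36 and 5.15 without the 2iL library of experiment 3 or 4). Pax5 was not called without that library (1.65 ± 0.70 against 2.602 ± 0.64 with it) and was 1.81 without the 2iL library of experiment 3, and Wnt8b was read at 96 h in experiment 3 alone, at 15.6 CPM. Without experiment 3 7 of the list rose, and in a fit of the 2 groups alone 4 of the 8 with enough counts.

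Among the 5 that fell were 3 posterior genes and Nkx6-2. Hoxb9 was at 12.5, 30.3, 34.4 and 31.7 CPM in 2iL and 2.74, 2.82, 1.74 and 1.62 CPM at 96 h (-3.57 ± 0.61). The caudal homeobox genes Cdx1 and Cdx2, which are also targets of WNT signalling, fell from 8.23 to 23.1 to 0 to 0.808 CPM and from 7.21 to 17.5 to 0.402 to 1.21 CPM. These 4 genes were read mainly in 2iL. The number that fell was 9 with no filter on low counts, 7 without the 2iL library of experiment 4 and 4 to 6 in the other alternatives.

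The neural progenitor list held 20 measured genes, of which 13 rose and 3 fell, with a median of 2.70. Its summed level was 924, 912, 1341 and 1246 CPM in 2iL and 1297, 1240, 2910 and 1745 CPM at 96 h. In experiments 1 and 2 the 96 h sum thus lay within the 2iL range. Sox1, the earliest definitive marker of neural cells, was at 8.18, 2.56, 1.12 and 1.13 CPM in 2iL and 22.8, 23.7, 134 and 47.2 CPM at 96 h (3.96 ± 0.51, adjusted p = 8.3e-08). Experiment 3 was the highest and without it the change was 3.30 ± 0.48. Without the 2iL library of experiment 1 or 3 it was 5.11 or 3.32. Nes, the intermediate filament nestin, rose from 10.5 to 20.5 to 48.7 to 95.9 CPM (2.14 ± 0.27), with experiment 1 highest. Ncan, a proteoglycan of the brain, rose from at most 0.565 CPM to 15.5, 14.9, 18.2 and 16.96 CPM, alike in the 4 experiments. Hes5, a Notch effector of progenitors, was at 4.11, 4.43, 53.8 and 8.88 CPM at 96 h (5.12 ± 0.78, or 4.53 ± 0.90 without experiment 3). Vim (vimentin) fell from 259 to 467 to 132 to 170.4 CPM (-1.13 ± 0.14), and Id4 fell (-1.91 ± 0.41). Without experiment 3 12 of the list rose, and in a fit of the 2 groups alone 9 of the 14 with enough counts. Members near 0 in 2iL could pass the filter through later times at which they are high, so these counts are a description.

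Of 23 genes of neurons and axons, 15 rose and 4 fell (median 1.31). Gap43, a growth cone protein, rose from 1.92, 3.85, 0 and 3.39 to 85.9, 71.6, 91.2 and 66.6 CPM (5.17 ± 0.43). Crmp1, a collapsin response mediator, rose from 1.13 to 2.56 to 33.0 to 55.3 CPM (4.59 ± 0.37), and the RNA-binding gene Elavl3 from 0.565 to 4.70 to 29.1 to 51.7 CPM (4.11 ± 0.48). Ina, an intermediate filament of neurons, rose from 20.2 to 42.3 to 178 to 187 CPM (2.51 ± 0.21), and Gap43 and Ina were even across the 96 h libraries. The neurofilament genes Nefl and Nefm and the tau gene Mapt fell (-1.20 ± 0.21, -1.27 ± 0.28 and -3.44 ± 0.53). Mapt was at 16.8, 30.3, 10.1 and 31.7 CPM in 2iL and 3.20, 0.805, 2.17 and 1.62 CPM at 96 h. Tubb3, a tubulin used as a marker of neurons, was at 103, 124, 107 and 115 CPM in 2iL and 179, 186, 171 and 132 CPM at 96 h. Its libraries did not overlap, but the test was not passed (adjusted p = 0.051 by edgeR's quasi-likelihood test). It was passed by library totals, with no filter, in a fit of the 2 groups alone and without the 2iL library of experiment 4, with changes of 0.55 to 0.67.

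Of 24 adhesion and guidance genes of the nervous system 16 rose and 2 fell (median 1.60), or 10 of the 18 with enough counts in a fit of the 2 groups alone. Besides Nfasc, its relative Nrcam rose from 0, 0, 0 and 1.13 to 4.11, 9.66, 21.7 and 16.6 CPM, and Cntfr, the receptor of ciliary neurotrophic factor, had 0 counts in 2iL and was at 3.65, 3.62, 13.5 and 9.69 CPM, at least 22.5-fold higher. The ephrin ligand gene Efnb2 rose from 1.44 to 3.39 to 29.9 to 50.7 CPM (3.90 ± 0.33) and the semaphorin gene Sema6a from 2.26 to 8.12 to 30.8 to 57.1 CPM (3.21 ± 0.40). Efnb1, another ephrin ligand, was at 13.7, 15.3, 116 and 42.4 CPM at 96 h and was not called without experiment 3 (0.41 ± 0.28) or in a fit of the 2 groups alone (0.92). L1cam, a further relative of Nfasc, was not tested for want of counts.

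Markers of other lineages gave this picture. Of 5 primitive streak genes measured, 2 fell and 0 rose, against 1 that rose at an unadjusted p under 0.05 and 1 by DESeq2. T (brachyury), the mesoderm factor, was at 10.6, 18.4, 24.3 and 24.3 CPM in 2iL and 2.74, 0.402, 2.605 and 5.25 CPM at 96 h (-2.80 ± 0.73). Mixl1, another streak factor, had 3 and 5 counts in the groups. The summed level of the streak list was 35.1 to 56.0 CPM in 2iL and 10.9 to 23.4 CPM at 96 h. Of 8 primitive endoderm genes 4 rose and 2 fell, but the risers were the basement membrane genes Col4a1, Col4a2 and Lamb1 and the adaptor gene Dab2, whose call (adjusted p = 0.049 by edgeR's quasi-likelihood test) was lost without any single library of the 8. The summed level of the list was 681 to 967 CPM in 2iL and 532 to 802 CPM at 96 h, with overlap. The defining factors Gata4, Gata6 and Sox17 were not tested for want of counts, with 3, 4 and 5 counts at 96 h over 4 libraries. Of 8 trophoblast genes 1 rose, the keratin gene Krt18 (4.08 ± 0.45), and 3 fell, among them Tfap2c (-3.09 ± 0.44). The summed level of that list was 106 to 175 CPM in 2iL and 36.5 to 95.5 CPM at 96 h, and Elf5, a defining factor, was at 0 in both. Of 6 genes of neural crest and surface ectoderm, Ets1 rose and Tfap2a fell (-3.49 ± 0.49), with sums of 36.7 to 41.0 and 30.6 to 43.8 CPM. The 1 rise of that list was 0 in a fit of the 2 groups alone, 2 with no filter, 3 without the 96 h library of experiment 4, and 2 without the libraries of experiments 1 or 2 in either group or of experiment 4 in 2iL. Sox10, a defining factor of the crest, was at 0 in 2iL and had 7 counts at 96 h. Genes of the two-cell-like state summed to 0.855 to 23.2 CPM in 2iL and 2.41 to 4.44 CPM at 96 h, with Zscan4c at 0 in both. The part of such cells in the results was not tested.

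Fibroblast markers were read in both groups, although the labels name no feeder cells. Of 11 measured, 4 rose and 0 fell, with a median of 0.26. The summed level was 238, 239, 439 and 377 CPM in 2iL and 468, 276, 485 and 378 CPM at 96 h, with overlapping ranges. The collagen genes Col1a1 and Col1a2 were at 48.7 to 104 and 75.5 to 189 CPM in 2iL and at 41.1 to 109 and 72.0 to 169.7 CPM at 96 h. Tagln, a smooth muscle actin-binding protein, rose from 6.78 to 9.35 to 24.2 to 58.0 CPM (2.30 ± 0.33) and Thy1 from 4.33 to 10.7 to 14.8 to 26.5 CPM (1.60 ± 0.38). Of the defining markers, Twist2 had 4 and 8 counts, and Fap was at 0 in both groups. The part of such cells in the extracellular matrix results below was not tested, and in bulk samples fewer cells of a type and less RNA per cell cannot be told apart.

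**Figure D3:**
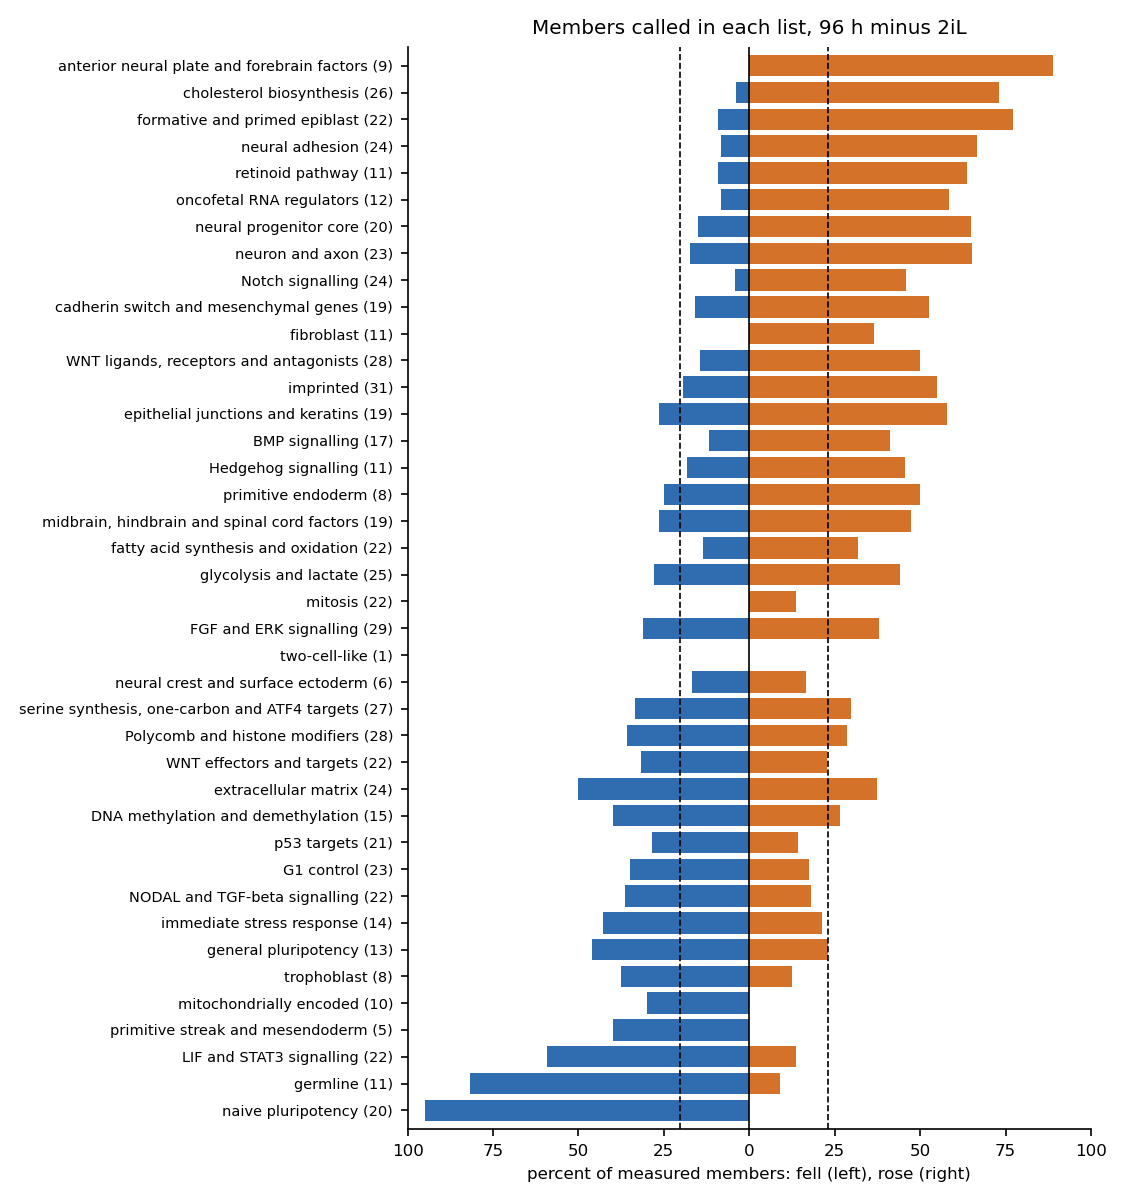
Share of measured members that rose (orange, to the right) and fell (blue, to the left) in each of 40 gene lists, with the number measured beside the name. Dashed lines mark the shares over all genes, 23.2% risen and 20.4% fallen. Naive pluripotency lies farthest to the left, and anterior neural factors, formative epiblast and cholesterol biosynthesis lie farthest to the right.

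The pathways that 2iL acts on changed in their own genes. In the LIF and STAT3 list, 13 of 22 measured genes fell and 3 rose (median -1.02). On the receptor side, Lifr fell from 61.6, 68.0, 101 and 51.4 to 17.4, 13.7, 9.55 and 14.5 CPM (-2.36 ± 0.23) and Il6st, which encodes its partner gp130, from 32.1 to 67.0 to 5.63 to 20.4 CPM (-1.80 ± 0.25). Stat3 itself fell from 132, 138, 99.1 and 113 to 31.1, 32.6, 18.7 and 29.5 CPM (-2.11 ± 0.20). Among targets, Socs3, the feedback inhibitor, fell (-2.27 ± 0.33), as did the kinase gene Pim1 (-2.92 ± 0.23) and the nuclear factor Bcl3 (-4.98 ± 0.33), from 86.6 to 101 to 0.868 to 5.94 CPM. Gadd45g, a stress and growth arrest gene, rose (2.35 ± 0.45). It was 1 of the 3 rises, and the other rises are not named here. Of the 22 genes 6 did not pass the test. The list thus did not fall as a whole, although the other genes named here were lower at 96 h.

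In the FGF and ERK list, of the pathway that the MEK inhibitor blocks, 11 of 29 measured genes rose and 9 fell (median 0.33). The falls numbered 5 in a fit of the 2 groups alone. The summed level was 1097 to 1308 CPM in 2iL and 888 to 1135 CPM at 96 h, with overlap. Feedback inhibitors of ERK were among the rises, while Fos, Egr1, Etv5, Ccnd1 and Dusp14 were among the falls. The phosphatase gene Dusp6 rose from 7.21, 8.98, 13.1 and 10.7 to 52.98, 48.7, 33.9 and 47.6 CPM (2.22 ± 0.26) and Dusp4 from 0.962, 1.71, 1.12 and 0.565 to 90.4, 82.9, 23.01 and 74.3 CPM (5.77 ± 0.45). Spred3 and Spry4 rose by 2.59 ± 0.35 and 2.11 ± 0.55. The ligands split: Fgf4, the autocrine FGF of naive cells, fell from 128, 116, 116 and 111 to 37.9, 33.4, 5.21 and 20.6 CPM (-2.37 ± 0.27), whereas Fgf5 rose (above) and Fgf15 rose by 3.74 ± 0.69 (4.46 without the 2iL library of experiment 2). The receptor genes Fgfr1 and Fgfr2 rose by 0.92 ± 0.18 and 3.73 ± 0.48. Egr1, an immediate early gene, ranged from 1.44 to 185 CPM in 2iL, and its fall (-1.73 ± 0.53) was not called in a fit of the 2 groups alone (-1.42) or without the 2iL library (-0.55) or the 96 h library (-1.33) of experiment 2, and was -2.33 without the 2iL library of experiment 1.

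WNT pathway genes changed in both directions. Of 22 effectors and targets, 5 rose and 7 fell (median -0.11), 54.5% called against 43.5% of all genes. Axin2, the feedback scaffold that follows beta-catenin activity in most cells, fell from 42.3, 46.6, 70.3 and 38.4 to 5.48, 7.65, 32.1 and 12.1 CPM (-1.88 ± 0.28). Sp5, a zinc finger target, fell from 99.1, 107, 140.3 and 107 to 0.457, 0.805, 33.4 and 6.46 CPM. The library of experiment 3 was the highest in both genes at 96 h, and without it the changes were -2.45 ± 0.29 and -5.35 ± 0.43 in place of -1.88 ± 0.28 and -3.58 ± 0.43. At 120 h the means were 36.0 ± 10.6 and 31.7 ± 9.45 CPM (SD, n = 4). Nkd1, a feedback inhibitor, rose from 1.28 to 3.37 to 7.76 to 40.4 CPM (2.91 ± 0.41) and Lef1 by 0.83 ± 0.19.

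Among 28 WNT ligands, receptors and antagonists 14 rose and 4 fell (median 0.99). Sfrp2, which encodes a secreted WNT antagonist, was at 2.89, 2.99, 7.86 and 6.22 CPM in 2iL and 17.8, 19.7, 21.3 and 17.4 CPM at 96 h (1.98 ± 0.30). Fzd10, a receptor gene, fell from 35.5 to 48.1 to 1.37, 2.01, 12.2 and 5.65 CPM (-2.98 ± 0.36, or -3.74 ± 0.40 without experiment 3). Wnt7b (2.55 ± 0.81) was not called without the library of experiment 3 at 96 h (0.68) or in 2iL (2.66), or by DESeq2 (2.40). In a fit of the 2 groups alone 9 of the 18 members with enough counts rose.

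The window of 250 bases before to 50 after the start of Sp5 is shown because it holds a TCF/LEF motif (CTTTGAT, either strand, in capitals), and Sp5 is the 1 of 2 WNT targets with that motif that fell. It lies at chr2:70474673-70474972 on the plus strand (RefSeq, GRCm38.p6).

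Sp5: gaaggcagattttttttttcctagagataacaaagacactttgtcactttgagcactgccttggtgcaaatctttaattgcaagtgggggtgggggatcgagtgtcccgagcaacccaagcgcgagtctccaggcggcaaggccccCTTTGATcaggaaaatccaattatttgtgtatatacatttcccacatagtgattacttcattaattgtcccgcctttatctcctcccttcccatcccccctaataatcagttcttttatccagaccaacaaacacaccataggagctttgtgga

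The motif was in 2 of the 17 WNT effector and target genes with a window and in 4.29% of all genes. The STAT3 motif TTCNNNGAA was in 1 of 20 LIF and STAT3 genes (Socs3) against 9.55% of all genes, and the octamer ATGCAAAT in 1 of 13 naive and 1 of 16 epiblast genes against 1.97%. These are counts of letters in a short window.

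Of 22 NODAL and TGF-beta genes 8 fell and 4 rose (median -0.20). The ligand gene Nodal fell from 36.1, 23.1, 28.1 and 33.4 to 7.31, 3.22, 3.04 and 2.83 CPM (-2.93 ± 0.45), its coreceptor gene Tdgf1 from 147, 131, 88.7 and 149 to 18.7, 17.3, 6.51 and 13.3 CPM (-3.22 ± 0.35), and the convertase gene Pcsk6, whose product matures it, from 27.3 to 34.5 to 3.65 to 5.21 CPM (-2.78 ± 0.29). The antagonist and target Lefty2 was uneven in 2iL, at 39.9, 219.7, 52.0 and 269 CPM, and at 12.8, 12.5, 7.81 and 11.7 CPM at 96 h. The receptor gene Acvr2b rose (1.51 ± 0.17). In the BMP list 7 of 17 rose and 2 fell. The ligand gene Bmp4 fell from 20.4 to 45.3 to 2.82 to 5.25 CPM (-2.96 ± 0.31). The Id target genes split: Id4 fell (above), while Id2 and Id3 rose by 1.81 ± 0.30 and 1.23 ± 0.33, both highest in experiment 3.

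Of 24 genes in the Notch list 11 rose and 1 fell (median 0.82). The ligand genes Dll1 and Dll3 rose to 10.05, 3.62, 11.3 and 5.25 and 13.7, 16.1, 6.51 and 15.3 CPM, from at most 0.855 and 4.11 CPM. Hes6, a member of the hairy family, rose from 17.8 to 22.7 to 58.6 to 168 CPM (2.44 ± 0.22), lowest in experiment 3. Maml3, a coactivator, rose from 0.374 to 1.44 to 16.5 to 50.4 CPM (4.73 ± 0.48). Hes3, a further member, was at 0.913, 0.805, 33.0 and 6.46 CPM at 96 h, mostly in experiment 3 (5.69 ± 0.88, or 4.28 ± 0.87 without it). In a fit of the 2 groups alone 6 of the 16 Notch members with enough counts rose and 2 fell. Without the 96 h library of experiment 3, 3 members fell. In the retinoid list 7 of 11 rose and 1 fell, and in the Hedgehog list 5 of 11 rose and 2 fell. The 2 Hedgehog falls were 0 in a fit of the 2 groups alone, 0 without the 96 h library of experiment 2 or the 2iL library of experiment 4, and 1 without any other single library except the 96 h library of experiment 4. Crabp2, a carrier of retinoic acid, rose from 0.481 to 5.24 to 40.6 to 104 CPM (4.58 ± 0.36), and Smo, the Hedgehog signal transducer, from 0.374 to 2.14 to 10.5 to 14.8 CPM (3.23 ± 0.47).

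Genes of DNA methylation changed in a divided way. Of 15 measured, 4 rose and 6 fell (median -0.16). The de novo enzymes Dnmt3b (above) and Dnmt3a rose, Dnmt3a from 30.8, 27.4, 32.9 and 31.7 to 227, 236, 109.8 and 235 CPM (2.70 ± 0.22). Of the TET oxidases, which start demethylation, Tet1 fell from 354, 386, 446 and 431 to 262, 204, 81.6 and 138 CPM (-1.32 ± 0.22) and Tet2 from 23.9 to 48.6 to 2.605 to 6.06 CPM (-3.27 ± 0.38), while Tet3 rose from 2.83 to 6.84 to 26.97 to 38.2 CPM (2.98 ± 0.34). The maintenance pair Uhrf1 and Dnmt1 fell (-0.87 ± 0.15 and -0.32 ± 0.10). Dnmt3l, the catalytically inactive partner, was at 77.9, 49.2, 13.1 and 13.002 CPM in 2iL and 59.8, 68.8, 14.3 and 37.5 CPM at 96 h and did not pass the test, after 276 ± 51.7 CPM at 48 h (SD, n = 4). Without the 2iL library of experiment 1 Dnmt3l rose (0.72).

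Germline genes, many of which are kept silent by promoter methylation in somatic cells, numbered 11, of which 9 fell and 1 rose, or 2 rose without the 96 h library of experiment 3 and 3 with no filter (median -2.77). Dazl, a germ cell RNA-binding protein gene, fell from 28.9, 21.8, 53.1 and 59.9 to 3.20, 2.82, 0.434 and 2.42 CPM (-4.09 ± 0.43). Tex19.1 fell from 105 to 144 to 10.4 to 40.6 CPM (-2.20 ± 0.24) and Rpl10l, a retrogene copy of a ribosomal protein gene, from 147 to 201 to 7.81 to 29.4 CPM (-3.13 ± 0.27), a count that is uncertain because of its near copies. At 48 h these last 2 were still at 158 ± 17.9 and 163 ± 49.0 CPM (SD, n = 4), so that they fell between 48 and 96 h (-2.54 ± 0.24 and -3.01 ± 0.27). The meiotic gene Sycp3 rose (2.03 ± 0.54), from 1.92 to 7.91 to 6.08 to 29.8 CPM.

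Chromatin regulators changed modestly and in both directions, with 8 of 28 up and 10 down. The Polycomb genes Suz12 and Mtf2 fell from 429 to 525 to 127 to 192 CPM (-1.56 ± 0.12) and from 437 to 517 to 163 to 197 CPM (-1.41 ± 0.10), both well beyond the spread of 4 libraries. Ezh2, the catalytic subunit of the same complex, did not pass the test, at 414 to 578 and 319.7 to 557 CPM. The remodeller gene Chd7 rose from 36.7 to 47.4 to 149 to 277 CPM (2.22 ± 0.16).

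Of 31 imprinted genes 17 rose and 6 fell (median 0.76). Gnas, the gene of a stimulatory G protein subunit, rose from 72.6, 71.4, 65.5 and 53.7 to 283, 360.2, 555 and 449 CPM (2.604 ± 0.15). Snrpn, of the Prader-Willi region, rose from 27.1 to 70.2 to 374, 413, 158 and 368 CPM (2.80 ± 0.24), and its neighbours Ndn and Magel2 rose too, Ndn by 2.62 ± 0.30 and Magel2 from 0 counts to 5.02, 12.1, 8.68 and 8.88 CPM (at least 25.6-fold). H19, a noncoding RNA, was uneven at 96 h, at 123, 105, 13.5 and 27.5 CPM. Plagl1, a zinc finger factor, fell from 56.1 to 117 to 2.82 to 8.68 CPM (-3.87 ± 0.31).

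Cholesterol biosynthesis was the metabolic list that moved most evenly. Of 26 measured genes 19 rose and 1 fell (2 without the 2iL library of experiment 3), with a median of 1.19 against 0.02 over all genes, and in 19 of them every 96 h library was above every 2iL library. At its entry Hmgcs1 rose from 259.7, 203, 207 and 203 to 685, 733, 888 and 752 CPM (1.80 ± 0.12, adjusted p = 5.1e-14).

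In the mevalonate steps Mvk, Pmvk and Mvd rose by 1.21 ± 0.16, 2.03 ± 0.21 and 1.71 ± 0.17. Fdps, the farnesyl diphosphate synthase, rose from 79.3 to 153 to 246 to 351 CPM (1.52 ± 0.15). Of the sterol steps, Sqle, Lss and Cyp51 rose by 1.19 ± 0.12, 1.66 ± 0.20 and 1.58 ± 0.14, and Msmo1, Nsdhl and Sc5d by 1.52 ± 0.16, 1.49 ± 0.21 and 1.39 ± 0.21. Fdft1, Tm7sf2, Dhcr7 and Lbr did not pass the test, at 0.25 ± 0.23, 0.77 ± 0.33, 0.48 ± 0.26 and 0.12 ± 0.10. Fdft1 passed it without the 2iL library of experiment 1 (0.63), and Tm7sf2 by library totals or on leaving out experiment 1 at 96 h or experiment 2 or 4 in 2iL (0.81 to 0.99). Ebp, the sterol isomerase, fell from 66.9 to 103 to 24.95 to 51.7 CPM (-1.33 ± 0.21). Of the regulators, Srebf2, the transcription factor of the pathway, rose by 0.54 ± 0.13. Insig1 (-0.42) and Srebf1 (-0.26) leaned down and did not pass the test. Insig1 fell without the 2iL library of experiment 3 (-0.61). The 96 h library of experiment 3 was the highest in Hmgcs1 and Cyp51 and the lowest in Mvd and Fdps. The 48 h means lay between the groups for Hmgcs1 (439.6 ± 73.8 CPM) and Pmvk (97.7 ± 39.4 CPM; SD, n = 4).

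**Figure D4:**
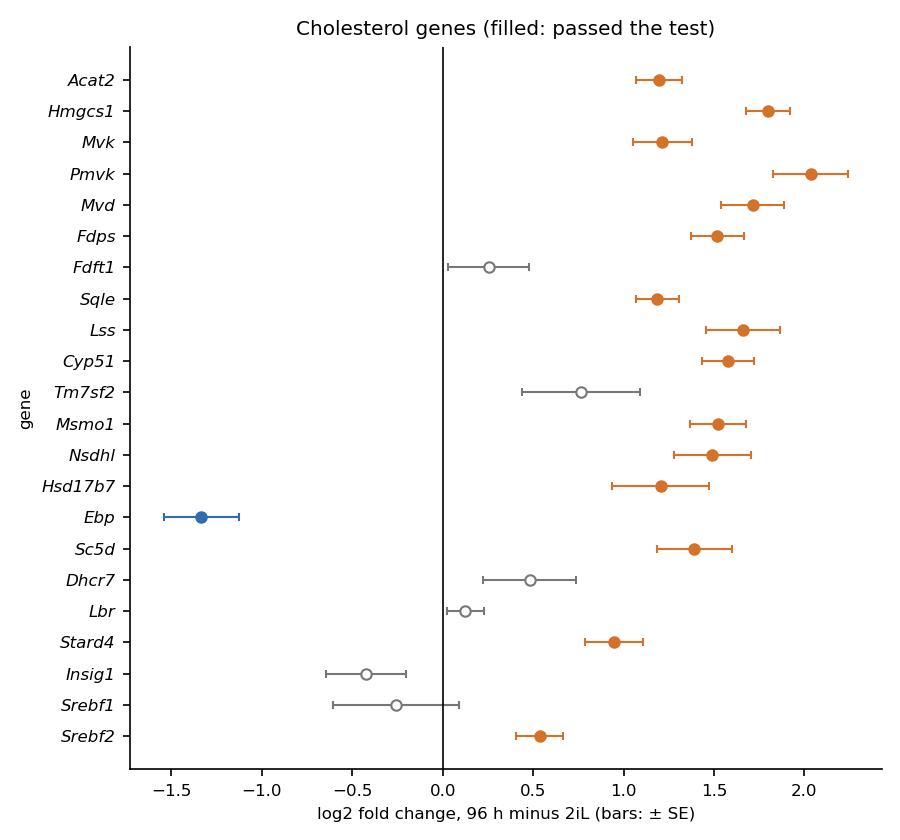
Log2 fold change (96 h minus 2iL) ± SE of 22 of the 26 measured cholesterol genes, in the order of the pathway from acetyl-CoA, with regulators last. Filled points passed the test and open points did not. All but Ebp among the filled points lie to the right of 0.

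Promoter windows of 4 of these genes are printed because the genes rose together. They are the 4 largest rises among members with 1 window in the RefSeq table (GRCm38.p6, 250 bases before to 50 after the start) and a CCAAT box, the site of the factor NF-Y that works beside SREBP. Capitals mark the CCAAT letters on either strand and, in Hmgcs1, also the SREBP motif TCACNCCAC. In the order printed they lie at chr13:119690101-119690400 (plus strand), chr8:122443373-122443672 (minus), chr10:76531355-76531654 (plus) and chr5:4104648-4104947 (minus).

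Hmgcs1: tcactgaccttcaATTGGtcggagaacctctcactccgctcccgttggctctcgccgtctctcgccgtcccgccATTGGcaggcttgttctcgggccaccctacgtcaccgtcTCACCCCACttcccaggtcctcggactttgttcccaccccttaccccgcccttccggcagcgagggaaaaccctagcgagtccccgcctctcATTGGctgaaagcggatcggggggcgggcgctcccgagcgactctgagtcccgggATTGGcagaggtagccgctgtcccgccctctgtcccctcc

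Mvd: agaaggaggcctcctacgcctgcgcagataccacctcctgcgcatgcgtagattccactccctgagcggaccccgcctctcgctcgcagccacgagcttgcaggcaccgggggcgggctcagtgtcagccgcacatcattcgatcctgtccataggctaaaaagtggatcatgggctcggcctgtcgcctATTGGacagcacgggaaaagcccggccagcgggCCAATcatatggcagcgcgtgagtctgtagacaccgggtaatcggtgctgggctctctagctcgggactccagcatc

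Lss: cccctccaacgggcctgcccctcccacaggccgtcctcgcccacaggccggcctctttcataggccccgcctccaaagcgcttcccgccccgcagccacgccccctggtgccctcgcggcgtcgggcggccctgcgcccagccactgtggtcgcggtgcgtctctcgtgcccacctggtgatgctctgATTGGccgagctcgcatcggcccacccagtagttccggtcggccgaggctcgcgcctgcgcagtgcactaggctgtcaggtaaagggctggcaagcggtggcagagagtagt

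Cyp51: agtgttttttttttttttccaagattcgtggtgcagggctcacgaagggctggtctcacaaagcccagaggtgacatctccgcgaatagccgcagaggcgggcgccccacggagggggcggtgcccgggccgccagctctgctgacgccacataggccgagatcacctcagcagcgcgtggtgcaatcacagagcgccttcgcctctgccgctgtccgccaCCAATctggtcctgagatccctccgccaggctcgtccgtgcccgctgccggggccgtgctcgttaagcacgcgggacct

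Windows were found for 18 of the 26 genes. CCAAT was in 17 of the 18, against 41.1% of all genes with a window and 37.4% of all windows. Of those 17 genes 11 rose and 1 fell. The motif TCACNCCAC was in 1 of 18 (Hmgcs1), against 1.44% of all genes, and the E-box CACGTG in 4 of 18, against 8.09%. The short CCAAT box can also lie within other motifs.

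Glycolysis genes changed in both directions, with 11 of 25 up and 7 down (median 0.42). Ldha rose from 143 to 358 to 384 to 714 CPM (1.37 ± 0.14) and Ldhb fell from 141 to 283 to 42.1 to 74.3 CPM (-1.66 ± 0.21). The glucose transporter gene Slc2a1 rose (2.44 ± 0.14) and Slc2a3 fell (-0.93 ± 0.22). The phosphofructokinase gene Pfkl rose (1.42 ± 0.18) and Pfkp fell (-2.23 ± 0.23). The enolase genes Eno1 and Eno2 rose by 0.53 ± 0.15 and 1.99 ± 0.64, the latter not called without the 96 h library of experiment 3 (1.66 ± 0.70). Both hexokinase genes fell, Hk1 from 97.8 to 136 to 16.1 to 22.8 CPM (-2.72 ± 0.22) and Hk2 (-1.07 ± 0.11). The lactate exporter gene Slc16a3 rose from 7.86 to 29.4 to 132 to 275 CPM (4.09 ± 0.26).

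In the fatty acid list 7 of 22 rose and 3 fell, 45.5% called and near the 43.5% of all genes. Genes of oxidation went both ways, with Cpt1a, which admits fatty acids to mitochondria, down from 52.4 to 77.4 to 2.82 to 8.48 CPM (-3.52 ± 0.37) and Acadm down from 139 to 165 to 33.9 to 38.8 CPM (-2.10 ± 0.16). Acadl and Cpt2, also of oxidation, rose by 1.51 ± 0.21 and 1.03 ± 0.34, the latter not called without the 2iL library of experiment 2 (0.91). The desaturase and elongase genes Fads1 and Elovl5 rose by 0.78 ± 0.19 and 1.44 ± 0.18. The serine, one-carbon and ATF4 list had 8 rises and 9 falls in 27, and the 10 transcripts of the mitochondrial genome 0 rises and 3 falls.

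Mitotic genes changed little, with 3 of 22 up, 0 down (2 at an unadjusted p under 0.05) and a median of 0.10. Without the 96 h library of experiment 3 1 rose, and without the 2iL library of experiment 1 5 rose and 1 fell. Mki67 was at 124 to 181 CPM in 2iL and 141 to 184.1 CPM at 96 h, and Top2a at 1316 to 1483 and 1190.2 to 1315 CPM. The genes of G1 control changed more, with 4 of 23 up and 8 down. Among D cyclins, Ccnd2 rose from 41.4, 68.8, 71.8 and 53.7 to 175, 139, 793 and 191 CPM (2.19 ± 0.26, or 1.70 ± 0.21 without experiment 3), while Ccnd1 and Ccnd3 fell (-0.61 ± 0.13 and -0.55 ± 0.14). Among inhibitors, Cdkn1a (p21) fell from 562 to 898 to 259.6 to 381 CPM (-1.39 ± 0.18) and Cdkn1c (p57) rose by 1.84 ± 0.26. Mycn rose by 0.87 ± 0.21. Of 21 p53 targets 3 rose and 6 fell, 42.9% called and near the 43.5% of all genes.

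Cell adhesion genes changed their members. In the cadherin and mesenchymal list 10 of 19 rose and 3 fell, and 6 of the 14 with enough counts rose in a fit of the 2 groups alone. Cdh2 (N-cadherin) rose from 2.89, 3.42, 5.24 and 4.52 to 16.9, 14.5, 53.8 and 30.7 CPM (2.77 ± 0.32), and Zeb2 from 2.89 to 5.61 to 24.2 to 77.7 CPM (3.35 ± 0.26). Cdh1 (E-cadherin) was at 839, 1056, 985 and 868 CPM in 2iL and 900.2, 1129, 365 and 772 CPM at 96 h and did not pass the test, with experiment 3 the lowest. With no filter Cdh1 fell (-0.37). Fn1 (fibronectin) fell from 145 to 261 to 39.0 to 61.7 CPM (-2.10 ± 0.19).

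In the epithelial list 11 of 19 rose and 5 fell, or 3 in a fit of the 2 groups alone (median 1.22). The tight junction genes Cldn6 and Cldn7 rose to 143, 91.0, 28.7 and 101 and 60.3, 58.0, 12.2 and 34.7 CPM, from 3.37 to 4.70 and 2.14 to 5.29 CPM. Epcam rose from 27.7 to 44.5 to 164, 154, 50.8 and 135 CPM (1.81 ± 0.33) and Esrp1, an epithelial splicing factor, to 58.9, 51.9, 13.5 and 40.0 CPM (3.98 ± 0.49). The desmosome genes Dsg2 and Jup fell (-2.22 ± 0.33 and -1.64 ± 0.31). In each of these 6 genes the 96 h library of experiment 3 was the lowest.

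Of 24 extracellular matrix genes 12 fell and 9 rose (median -0.56). Nid1 (nidogen), a basement membrane linker, fell from 57.3 to 68.1 to 2.82 to 12.8 CPM (-3.18 ± 0.32), and Lama1 and Lamc1, laminin chains, fell too (-2.44 ± 0.32 and -1.56 ± 0.21). The laminin chain gene Lamb1 and the collagen genes Col4a1 and Col18a1 rose by 1.67 ± 0.27, 1.85 ± 0.27 and 2.11 ± 0.17. Of 12 oncofetal RNA regulators 7 rose and 1 fell, a fall not called without the replicate block or without the libraries of experiment 1 in either group or of experiment 2 at 96 h. Lin28a and Lin28b, which block maturation of let-7, rose from 76.3 to 132 to 479 to 687 CPM (2.43 ± 0.16) and from 1.28 to 6.22 to 38.8 to 73.4 CPM (3.96 ± 0.27), and Nr6a1 rose by 3.64 ± 0.18.

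By share of all counts the changes fell on other genes. The 8 largest gains were of Tubb5, Ptma, Npm1, Tuba1a, Dnmt3b, Meg3, Sub1 and Sox11. The tubulin gene Tubb5 went from 1717 ± 147 to 3046 ± 218 CPM (SD, n = 4) and Tuba1a from 138 ± 37.6 to 1116 ± 74.3 CPM. Meg3, a noncoding RNA, was not called without the 2iL library of experiment 1 or 4 (0.64 and 0.66 against 0.76 ± 0.25). The 8 largest losses were of Eif2s2, Hsp90aa1, Mt2, Ckb, Pabpc1, Mt1, Npc2 and Klf5. The metallothionein gene Mt2 went from 1946 ± 512 to 711 ± 433 CPM and the brain creatine kinase gene Ckb from 1155 ± 129 to 83.1 ± 6.24 CPM. The fall of Mt1 was not called without the replicate block (-1.02).

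The 96 h libraries differed most from each other in a small set of genes. Among called genes of at least 20 CPM the 10 widest spreads were in Otx1, Foxb1, Nkx6-1, En1, Gpx2, Chst2, Hspb1, Cldn4, Lncenc1 and H19. Foxb1, a forkhead factor of the midbrain and hindbrain, was at 4.11, 2.01, 68.2 and 14.9 CPM, Nkx6-1 at 3.65, 10.1, 71.6 and 19.8 CPM and Chst2, a sulfotransferase gene, at 4.57, 8.05, 52.96 and 16.2 CPM. In these 3 experiment 3 was the highest, and without it the changes of Foxb1 and Chst2 were 3.55 ± 0.73 and 2.72 ± 0.53 in place of 4.94 ± 0.80 and 3.42 ± 0.53. In the naive-cell noncoding RNA Lncenc1 it was the lowest, at 79.9, 54.3, 8.68 and 39.2 CPM, and likewise in Cldn4, a tight junction gene, at 32.4, 35.0, 3.47 and 18.98 CPM, and in Gpx2, Hspb1 and H19.

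The 96 h library of experiment 3 lay among the 120 h libraries in several sums and outside their range in others. Its summed midbrain, hindbrain and spinal cord level of 811 CPM lay within the range of the 120 h libraries, 411 to 1638 CPM, and its epithelial sum of 303 CPM within theirs, 202 to 533 CPM. The other 96 h libraries were at 115, 105 and 277 and 799, 664 and 589 CPM. Its naive sum of 173 CPM lay within the 120 h range of 148 to 239 CPM too. At 120 h the library of experiment 3 was the highest in the first list and the lowest in the second. Outside the 120 h range lay its 96 h sums for anterior neural factors (304 CPM, range 94.3 to 289) and streak genes (10.9 CPM, 33.1 to 128). So did those for FGF and ERK genes (888 CPM, 1064 to 1382), cholesterol (4196 CPM, 3347 to 3994) and glycolysis (3454 CPM, 3729 to 4063). Without the 96 h library of experiment 3, 2284 genes rose and 2107 fell between 2iL and 96 h, in place of 2568 and 2255. The labels name no difference in handling between experiments, and the cause was not tested.

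**Figure D5:**
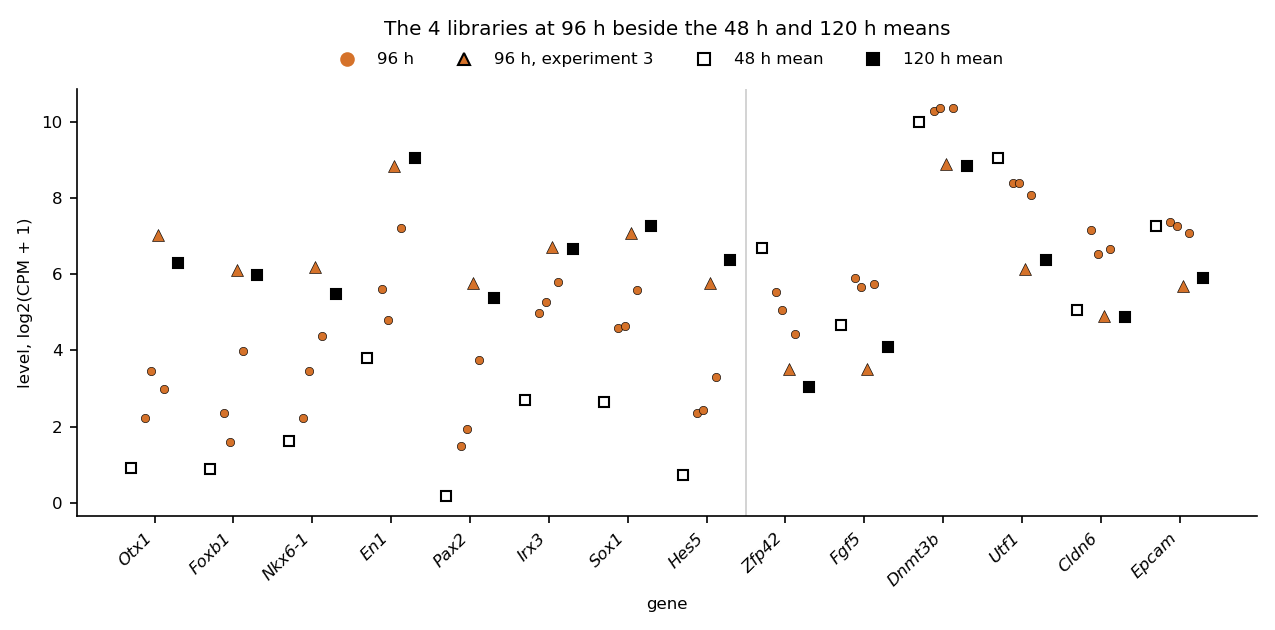
Level (log2 of CPM plus 1) of 14 genes in each of the 4 libraries at 96 h, with triangles for experiment 3, beside the means of 4 libraries at 48 h (open squares) and 120 h (filled squares). Experiment 3 lies highest in the 8 neural genes on the left and lowest in the 6 naive, epiblast and epithelial genes on the right.

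The 96 h values also stand between 2 neighbouring times. Between 48 and 96 h 2751 genes changed (24.8%), 1452 up (13.1%) and 1299 down (11.7%), and between 96 and 120 h 580 changed (5.23%), 295 up (2.66%) and 285 down (2.57%). Scaled by library totals alone the splits were 1761 up and 1001 down, and 350 up and 189 down. The later counts were 66 and 60 without the replicate block. They were 139 up and 75 down without the 96 h library of experiment 1, 128 and 70 without that of experiment 2, 126 and 98 without that of experiment 4, and 137 and 86 or 132 and 72 without the 120 h library of experiment 3 or 4. Both comparisons share the 96 h libraries with the main one. Of the 2568 genes that rose from 2iL to 96 h, 1046 also rose between 48 and 96 h, 63 fell in that interval and 1459 did not pass the test. Of the 2255 that fell, 776 fell further in that interval, 59 rose and 1420 did not pass the test. Genes that overshot at 48 h and came down by 96 h included Dnmt3a (457 ± 77.7 CPM at 48 h, -1.19 ± 0.19 from 48 to 96 h), Utf1 (532 ± 39.0 CPM, -1.25 ± 0.29) and Hes6 (213 ± 22.2 CPM, -0.91 ± 0.18). Genes that rose chiefly after 48 h included Nnat, an imprinted proteolipid gene, at 32.4 ± 14.6 CPM at 48 h and 144 ± 55.1 CPM at 96 h (2.14 ± 0.20), and Dpysl5, a guidance mediator, at 14.4 ± 3.30 and 66.6 ± 10.01 CPM (2.19 ± 0.23).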

How the data were processed

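Raw counts per gene of 28 libraries, 8 of them compared here, were deposited by the authors. Per the labels' protocols they are 3′ polyadenylated tag libraries, and the submitters' processing notes name bcl2fastq, STAR 2.6.0a, HTSeq and the genome build mm10. Strand and read filters are not given in the sources used here, so overlapping and antisense genes are uncertain. The deposited CPM table, made by the authors without TMM scaling, equals CPM computed from the counts in 28 of 28 columns and was not used further.

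Genes with at least 10 counts in enough libraries and 15 in total were kept (edgeR 4.0.16, filterByExpr), scaled by TMM, and tested with edgeR's quasi-likelihood test in 1 fit of 28 libraries with group and experiment as terms (R 4.3.3, 18 residual degrees of freedom, two-sided, Benjamini-Hochberg over 11080 genes). A standard error is the log2 fold change divided by the root of F. DESeq2 1.42.0, other scalings, no filter, no block, a fit of the 2 groups alone and leaving out each library were alternatives. The block is part of the rule that defines the comparison. Deviations from the group means of 2iL and 96 h libraries with the same number correlated at 0.16, 0.10, 0.15 and 0.14 over 4907 genes. Each 2iL library correlated best with the 96 h library of its own number. An unlike pair, experiment 1 in 2iL with experiment 2 at 96 h, reached 0.12, above the 0.10 of experiment 2. These weak correlations do not settle the pairing, and the numbers were taken from the titles. On data simulated for this comparison (9906 genes, 50 genes at each size) 80% of changes of log2 1, 100% of 2, 62% of -1 and 98% of -2 were recovered, with 8 false calls in 178. The changed genes were drawn from those above a minimum level in 2iL, and were far fewer than in the data. No single library was made to stand apart. The simulated shift of a gene by experiment number was shared by all groups, and the block removes such a shift. These rates therefore do not carry over to genes near 0 in 2iL or uneven at 96 h, or to experiments that share less between groups.

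No libraries were identical, and replicates differed by more than sampling noise (chi-square per gene 4.13 to 10.7). Whether replicates are separate cultures is not stated, so p-values measure the spread between these libraries, which may be technical. Genes named are the 15 largest rises and falls (at least 10 CPM, no overlap), the 8 largest gains and losses of share, the 10 widest spreads at 96 h (at least 20 CPM), 3 markers given with the comparison, and members of 40 lists (864 genes, 5 not found). Predicted, mitochondrial, ribosomal protein genes and pseudogenes were passed over in the rankings. Some members are counted in their lists but not reported here by name. The comparison and the lists were chosen with earlier results of these data known. A gene at 0 in a group gets a bound from a floor of 3 counts over the group, and one with 1 to 3 counts an exact 95% interval of the ratio. Gene positions are from GENCODE M21 (mm10), and promoter windows of 300 bases from RefSeq (GRCm38.p6).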

Additional observations from a re-analysis of the deposited data

Results flagged for a closer look

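In groups of 4, Dixon's ratio (gap to the nearest library over the range, compared with its 95% critical value) set 1 library apart in 59 of 559 sets of gene levels or list sums tested. Chance sets apart about 1 in 20 groups, but the sets include some with 3 libraries at 0, whose ratio is 1 by construction, and genes named for their wide spread at 96 h, so the counts are not compared with that rate. Of 36 such values at 96 h, 24 were of experiment 3, 21 high and 3 low, and 23 were in 2iL. Values are CPM.

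At 96 h experiment 3 stood above the other libraries in Ajap1 (55.6, others 0.403 to 8.48), Ccnd2 (793, others 139 to 191), Cdh6 (40.4, others 2.28 to 6.46), Cdkn1c (81.6, others 21.9 to 30.3) and Dab2 (12.6, others 5.25 to 6.44). It also stood above them in Hes5 (53.8, others 4.11 to 8.88), Id2 (133, others 50.7 to 54.9), Lhx5 (23.01, others 1.21 to 3.63), Mal (0.868, others 0 to 0) and Ndn (61.2, others 31.4 to 36.3). So it did in Nkd1 (40.4, others 7.76 to 12.1), Otx1 (129, others 3.65 to 10.1), Pax5 (39.9, others 2.28 to 6.06), Pax6 (17.8, others 2.28 to 4.84) and Srarp (0.434, others 0 to 0). The same held for Wnt1 (24.3, others 0.457 to 4.44), Wnt7b (28.2, others 0 to 2.83), Wnt8b (15.6, others 0 to 0), Zic1 (6.51, others 0 to 0.913) and the sum of the list anterior neural plate and forebrain factors (304, others 42.5 to 62.6). Last came the sum of the list G1 control (2536, others 1757 to 1838).

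At 96 h experiment 3 stood below the others in Dnmt3a (109.8, others 227 to 236), Dnmt3b (476, others 1246 to 1310) and the sum of the list DNA methylation and demethylation (1290, others 2285 to 2385). Experiment 1 stood above the others at 96 h in Nodal (7.31, others 2.83 to 3.22), Spic (1.83, others 0 to 0) and Xaf1 (0.457, others 0 to 0). Experiment 1 stood below the others at 96 h in Dpysl5 (51.6, others 70.3 to 72.4). Experiment 2 stood below the others at 96 h in Col4a1 (24.6, others 35.2 to 36.3). Experiment 4 stood above the others at 96 h in Cdx2 (1.21, others 0.403 to 0.457), Dmgdh (0.807, others 0 to 0), Gata6 (1.61, others 0 to 0), Npc2 (397, others 354 to 359) and Sox10 (2.83, others 0 to 0). Experiment 4 stood below the others at 96 h in Fetub (0, others 0.403 to 0.457) and Gata4 (0, others 0.403 to 0.457).

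In 2iL experiment 1 was high in Fdft1 (39.9, others 17.1 to 19.8), Hmgcs1 (259.7, others 203 to 207), Krt18 (3.37, others 1.12 to 1.28), Lmx1b (0.481, others 0 to 0) and Pcsk2 (0.481, others 0 to 0). Further genes high in experiment 1 were Utf1 (99.6, others 46.8 to 53.4). In 2iL experiment 1 was low in Cdkn1a (562, others 875 to 898). In 2iL experiment 2 was high in Ezh2 (578, others 414 to 415), Rims4 (0.427, others 0 to 0), Tet3 (6.84, others 2.83 to 3.37) and the sum of the list immediate stress response (6402, others 5394 to 5500). In 2iL experiment 2 was low in Pax6 (0, others 0.962 to 1.13). In 2iL experiment 3 was high in Hes3 (0.374, others 0 to 0), Pglyrp1 (84.5, others 15.8 to 25.97) and the sum of the list mitochondrially encoded (29240, others 22040 to 22810). In 2iL experiment 4 was high in Gata4 (0.565, others 0 to 0), Nrcam (1.13, others 0 to 0), Pfkp (155, others 120.1 to 124), Slc16a3 (29.4, others 7.86 to 8.18) and Wnt8b (0.565, others 0 to 0). In 2iL experiment 4 was low in Dab2 (1.70, others 3.85 to 4.12), Pax5 (0, others 1.87 to 2.14) and the sum of the list serine synthesis, one-carbon and ATF4 targets (3118, others 3444 to 3501). Several of these sets rest on fewer than 3 counts a library.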

How the results depend on the processing

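The counts of genes that rose (2568) and fell (2255) between 2iL and 96 h stayed within 1.5 times of these values in each alternative: 2014 to 2788 and 1980 to 2341 over the 6 other settings, and 2284 to 2487 and 1983 to 2220 on leaving out 1 library. Those between 48 and 96 h did so too, with 1061 to 1340 and 978 to 1197 on leaving out 1 library. Those between 96 and 120 h (295 and 285) did not: without the replicate block that pairs the experiments 66 rose and 60 fell, in a fit of the 2 groups alone 510 rose and 443 fell, 189 fell by library totals, 456 fell with no filter, and leaving out 1 library gave 126 to 382 and 70 to 398. The cause was not tested. In the main comparison 2430 rose and 2127 fell without the replicate block, which ended the calls of Dab2, Etv5, Mt1 and Pou5f1 among the genes named.

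Of 1936 values of 242 named genes on leaving out 1 library, 1897 kept direction and call, and of 1427 under other settings 1411 did. Signs reversed for Wnt8b without the 96 h library of experiment 3 (-1.28, with a range of -1.28 to 5.81 over libraries left out) and for genes that did not pass the test: Col1a1 without the 2iL library of experiment 1 (-0.0056, range -0.0056 to 0.28), Col1a2 without that of experiment 3 (0.016) or 4 (0.058, range -0.39 to 0.058), and Ezh2 without the 96 h library of experiment 1 (0.014, range -0.23 to 0.014). Of 1120 list counts 52 moved by over 1.5 times, 11 of them in the fit of the 2 groups alone, which tests 9843 genes in place of 11080. At these depths 3 counts over 4 libraries correspond to 0.339 CPM in 2iL and 0.317 CPM at 96 h, and smaller levels were not detectable.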
